A study of Saccharomyces cerevisiae with 14 samples.

Results

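The mRNAs of 10 chaperone genes of budding yeast were followed across 14 CRAC libraries. The genes encode the cytosolic Hsp70 proteins (*SSA1*, *SSA2*), the ribosome-bound Hsp70 proteins (*SSB1*, *SSB2*), both subunits of the ribosome-associated complex (*SSZ1*, *ZUO1*), a pair of cytosolic Hsp40 proteins (*YDJ1*, *SIS1*) and both forms of Hsp90 (*HSP82*, *HSC82*). They were taken by name, whatever their values, from 5838 protein-coding genes that could be placed on the genome. All 10 were present in the tables. The reads of 3 pairs of near-identical paralogs were added up (*SSA1* with *SSA2*, *SSB1* with *SSB2*, *HSP82* with *HSC82*), so that the 10 genes made 7 features. The *HSP82* and *HSC82* pair is called the Hsp90 pair below, and the others the *SSA* and the *SSB* pair.

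Hsp70 proteins bind short hydrophobic stretches of unfolded polypeptides in a cycle driven by ATP. Hsp40 proteins, which carry a J-domain, deliver substrates and stimulate the ATPase of Hsp70, and Hsp90 takes over late folding intermediates such as kinases and receptors. In yeast, Ssb1 and Ssb2 sit at the ribosomal tunnel exit and receive the nascent chain together with the complex of Ssz1 and Zuo1, whereas Ssa1 and Ssa2 act in the cytosol with Ydj1 and Sis1. The protein crosslinked here, Hel2, is a ubiquitin ligase that recognises collided ribosomes on mRNA. New1 is a ribosome-associated ATPase related to the elongation factor eEF3.

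In CRAC, ultraviolet light crosslinks RNA to a tagged protein inside the cell, and the RNA purified with that protein is sequenced as cDNA. All strains derived from BY4741, a laboratory strain of mating type a that lacks *HIS3*, *LEU2*, *MET15* and *URA3*, and *NEW1* was replaced by a KanMX cassette in *new1Δ* cells. Hel2-HTP was purified from wildtype and *new1Δ* cells grown at 20°C and at 30°C, New1-HTP from wildtype cells at 20°C, and untagged BY4741 cells were processed as the control at both temperatures. HTP is a tandem affinity tag with a histidine stretch and protein A. Each of the 7 groups had 2 replicates, which the methods call biological, and each replicate at a temperature was sequenced in its own run. Libraries at 20°C and 30°C were prepared by different steps, so that effects of temperature cannot be told apart from those of preparation. New1-HTP and untagged samples at 20°C were treated with RNase for another time than Hel2-HTP samples at 20°C.

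Tagged libraries held between 330299 and 1433090 sense reads on the genes used, here called mRNA reads. Untagged libraries at 20°C held only 356 and 1793 mRNA reads and are given as values without a test, and those at 30°C held 310279 and 23629. *NEW1* had 0, 0, 0 and 7 reads in the 4 *new1Δ* libraries and between 105 and 1192 in the 4 wildtype Hel2-HTP libraries. In 2 deposited tables the name of the input file in the header went against the sample label. The table labelled Hel2-HTP *new1Δ* at 20°C replicate 2 named a New1-HTP input, and the table labelled New1-HTP at 20°C replicate 2 named a New1-HTP *hel2Δ* input. The first had 0 reads on *NEW1* and 0 on *HEL2*, the second 581 on *NEW1* and 143 on *HEL2*. New1-HTP replicate 1, whose header matched its label, had 696 reads on *NEW1* and 1 on *HEL2*, whereas both Hel2-HTP wildtype libraries at 20°C had at least 315 on *HEL2*. The labels were kept, and fitted changes of the 7 features at 20°C are also given without the libraries in doubt.

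The end of the coding sequence is shown for each gene, because the study groups mRNAs by the last sense codon before the stop codon. Each line gives the last 30 bases of the coding sequence in the R64 genome, 5′ to 3′ on the gene's strand, with the last sense codon in capitals.
SSA1: gaaggtccaaccgttgaagaagttGATtaa
SSA2: gaaggtccaactgtcgaagaagttGATtaa
SSB1: gttgtcaccaaggccatgtcttctCGTtaa
SSB2: gttgtcaccaaggccatgtcttctCGTtaa
SSZ1: actggtaatgctgtaaagggtgaaTTAtag
ZUO1: ccatccagcttgttgtcctacttcGTGtga
YDJ1: ggcgaaggtgttcaatgtgcatctCAAtga
SIS1: caaaaacgtgctatagatgaaaatTTTtaa
HSP82: gctgacaccgaaatggaagaggtaGATtag
HSC82: gctgacaccgagatggaagaagttGATtaa

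The *SSB* pair ended on CGU, an arginine codon that closed 70 of the genes used (1.20%), and its 2 genes were identical over all 30 bases. The *SSA* and Hsp90 pairs ended on GAU, an aspartate codon shared by 202 genes (3.46%). *SSZ1* ended on UUA (leucine), *ZUO1* on GUG (valine), *YDJ1* on CAA (glutamine) and *SIS1* on UUU (phenylalanine). The stretches printed for the minus-strand genes were chrI:139503-139532 (*SSA1*, YAL005C), chrXII:95566-95595 (*SSA2*, YLL024C), chrVIII:225525-225554 (*SSZ1*, YHR064C), chrVII:1061852-1061881 (*ZUO1*, YGR285C), chrXIV:505868-505897 (*YDJ1*, YNL064C), chrXIV:618507-618536 (*SIS1*, YNL007C) and chrXVI:96496-96525 (*HSP82*, YPL240C). On the plus strand they were chrIV:45877-45906 (*SSB1*, YDL229W), chrXIV:253871-253900 (*SSB2*, YNL209W) and chrXIII:634443-634472 (*HSC82*, YMR186W).

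Coding sequences were identical at 96.4% of aligned positions for *SSA1* and *SSA2*, at 97.4% for *SSB1* and *SSB2* and at 91.7% for *HSP82* and *HSC82*. Of all windows of 30 bases in *SSA1*, 63.9% occurred unchanged in *SSA2*, and 58.7% of those in *SSB1* occurred in *SSB2*, against 16.2% of those in *HSP82* that occurred in *HSC82*. A read from such a window cannot be assigned to 1 gene, and sums over a pair do not depend on that choice.

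Together the 10 genes took between 1.69% and 2.55% of the mRNA reads in the 10 tagged libraries. In wildtype Hel2-HTP libraries they took 1.87% and 1.97% at 20°C and 1.90% and 1.81% at 30°C. In *new1Δ* they took 1.97% in both libraries at 20°C, and 2.22% and 2.55% at 30°C. The 30°C *new1Δ* libraries thus lay above both wildtype libraries of that temperature, while the 20°C *new1Δ* libraries lay at or just below the higher wildtype value. The untagged libraries at 30°C gave 0.432% each, and New1-HTP gave 1.69% and 2.40%. Antisense reads on the 10 genes numbered between 0 and 3 in a library.

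**Figure D1:**
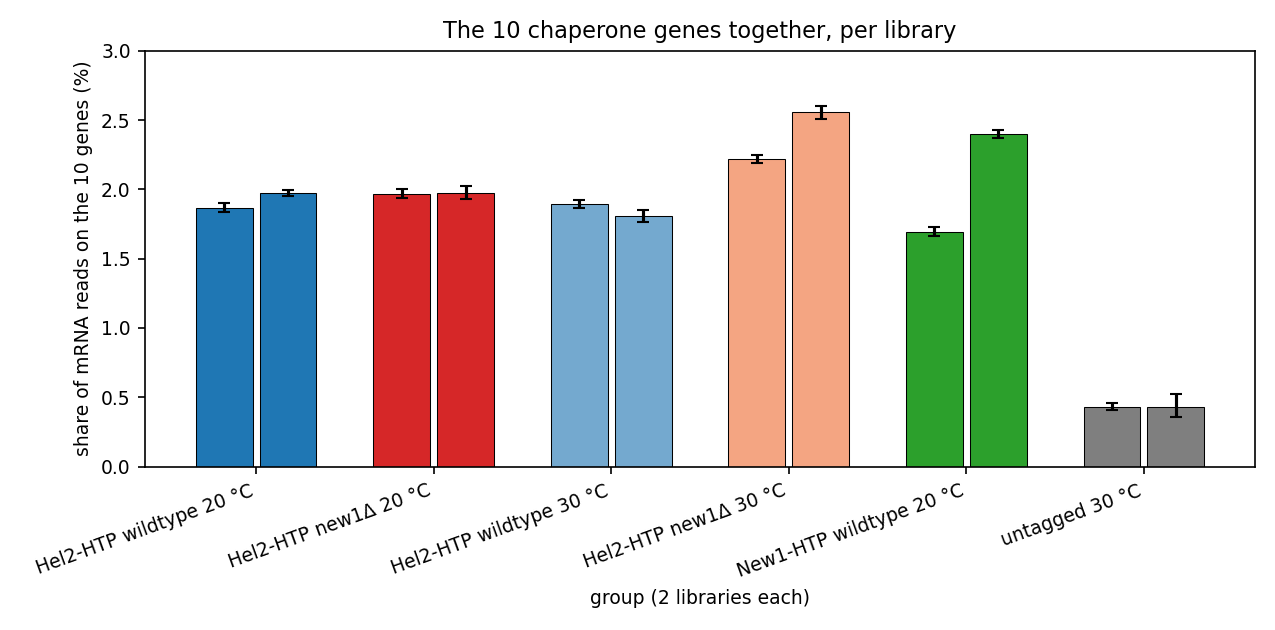
Share of mRNA reads (%, vertical axis from 0) that fell on the 10 chaperone genes in each library, grouped by protein, strain and temperature, with 95% Wilson intervals that cover counting error of reads only. The untagged libraries at 30°C sit at 0.432% and all tagged libraries between 1.69% and 2.55%.

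Per length of the annotated transcript, the same order held in all 10 tagged libraries. The *SSA* pair was highest, the *SSB* pair second and the Hsp90 pair next, and all 3 pairs lay above each of the 4 single genes. A pair's level is the summed reads of 2 genes over their mean length, whereas a single gene's level covers 1 gene. In wildtype Hel2-HTP at 20°C the levels were 3798 ± 78.8 reads per 1000000 mRNA reads and kilobase for the *SSA* pair, 2853 ± 44.2 for the *SSB* pair and 1454 ± 435 for the Hsp90 pair (mean ± SD, n = 2). *ZUO1* had 363 ± 87.4, *YDJ1* 302 ± 39.3, *SIS1* 293 ± 131 and *SSZ1* 224 ± 17.3 on the same scale. Taken alone, *HSP82* had 344 ± 180 and thus lay among the 4 single genes. The other paralogs taken alone lay above them, with means of 2213 (*SSA1*), 1559 (*SSA2*), 1561 (*SSB1*), 1295 (*SSB2*) and 1115 (*HSC82*). The 4 single genes had no fixed order, since *ZUO1* was the highest of them in 6 libraries, *SIS1* in 3, *SSZ1* in 1 and *YDJ1* in 0. A level per length in CRAC reflects both the amount of an mRNA and how often the protein crosslinks to it, and these cannot be told apart from the reads.

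Ssz1 and Zuo1 form a stable heterodimer, and the ratio of the reads per length on their mRNAs varied between libraries. The level of *SSZ1* per length was between 0.326 and 3.30 times that of *ZUO1* over the tagged libraries, with a median of 0.726. It was below that of *ZUO1* in every wildtype Hel2-HTP library and above it in Hel2-HTP *new1Δ* at 20°C replicate 2 and in both New1-HTP libraries. The highest ratio, in New1-HTP replicate 1, rested on 120 *ZUO1* reads from 8 cDNAs. In Hel2-HTP *new1Δ* at 20°C replicate 2, which has the conflicting header, *SSZ1* had 26 cDNAs and *ZUO1* 18. The summed level of both *SSB* genes was between 3.16 and 17.8 times the mean of *SSZ1* and *ZUO1* per length.

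Ranked by reads among 5835 features, the *SSA* pair stood between places 4 and 14 in the tagged libraries, the *SSB* pair between 11 and 25 and the Hsp90 pair between 17 and 74. *SSZ1* stood between 207 and 659 and *ZUO1* between 172 and 1124. Where they had reads, *YDJ1* stood between 206 and 845 and *SIS1* between 207 and 1917. The pairs rested on between 98 and 2389 distinct cDNAs in a library and the single genes on between 0 and 150, so that the single genes are measured less precisely. On these genes each cDNA stood for 3.20 to 11.7 reads in the tagged libraries, and intervals on reads therefore understate the error.

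**Figure D2:**
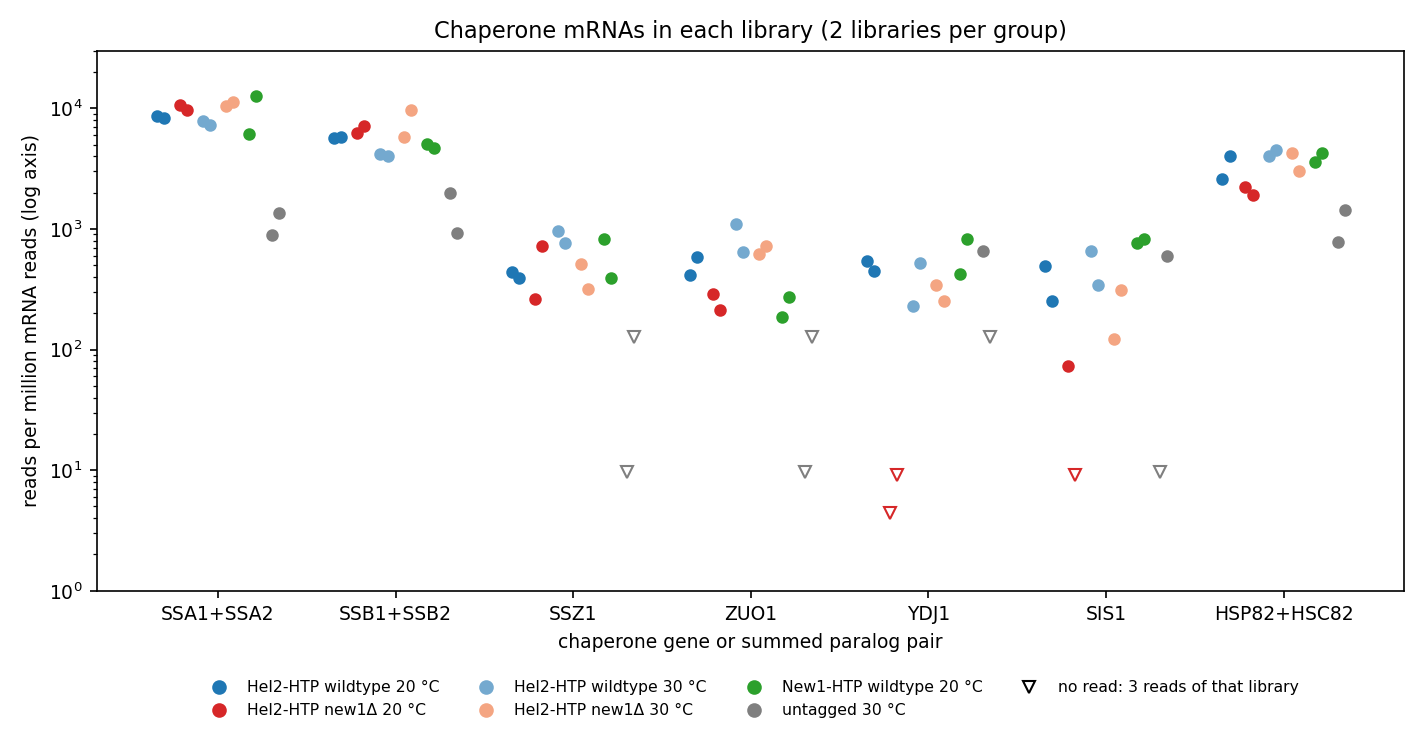
Reads per 1000000 mRNA reads (logarithmic vertical axis) of each of the 7 features in each library of 6 groups. Open triangles stand at 3 reads where a library had no read. *YDJ1* has no read in either Hel2-HTP *new1Δ* library at 20°C, while the 3 pairs do not fall below 1895 in any tagged library.

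The untagged control at 30°C gave the share of mRNA reads that these genes take without a tagged protein. Each library was scaled to its own mRNA reads. The comparison therefore does not give how many of the Hel2-HTP reads are background. After scaling of the libraries, Hel2-HTP in wildtype cells gave more reads than the control for 4 of the 7 features, the *SSA* pair, the Hsp90 pair, *SSZ1* and *ZUO1*. Across all genes 39 of 4230 tested passed in this comparison, all higher (0.922% of those tested). The median log2 fold change was 3.06 over the 7 features and 0.60 over all genes tested. These fold changes are scaled by TMM, a normalization between libraries, and lie above changes in the share of mRNA reads. Without TMM factors the median over all genes shifted by −1.08 and 1 of the 7 features passed, the *SSA* pair.

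The *SSA* pair had 7873 and 7218 reads per 1000000 mRNA reads (CPM) in Hel2-HTP and 893 and 1354 CPM in the untagged libraries. The groups were far apart, and the log2 fold change was 3.84 ± 0.45 (SE, adjusted p = 0.0208, edgeR quasi-likelihood test with Benjamini-Hochberg adjustment over all genes). The Hsp90 pair had 4000 and 4543 CPM against 783 and 1439, again without overlap, with a log2 fold change of 3.06 ± 0.49 (edgeR adjusted p = 0.0444). With 2 libraries in a group, groups can lie apart without a change. How many of all genes did so was not counted in any comparison. *SSZ1* had 814 and 279 reads and *ZUO1* 936 and 235 in Hel2-HTP, and both had 0 in both untagged libraries. With 3 reads allowed in each untagged library, *SSZ1* was at least 12.6-fold higher and *ZUO1* at least 12.8-fold higher (edgeR adjusted p = 0.0255 and 0.0242).

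The *SSB* pair had 4143 and 4044 CPM in Hel2-HTP and 1985 and 931 in the untagged libraries. The groups did not overlap, but the pair did not pass the test, with a log2 fold change of 2.51 ± 0.61 (edgeR adjusted p = 0.137). *YDJ1* had 194 and 193 reads in Hel2-HTP, and 203 and 0 in the untagged libraries. *SIS1* had 562 and 125 reads in Hel2-HTP, and 0 and 14 in the untagged libraries. In both Hsp40 genes 1 untagged library held a level within or above the Hel2-HTP range (654 CPM for *YDJ1* and 592 CPM for *SIS1*) and the other held none, and neither passed (edgeR adjusted p = 0.879 and 0.775). The 203 *YDJ1* reads came from 21 cDNAs and the 14 *SIS1* reads from 2.

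These calls depended on the scaling and the libraries used. Without TMM factors the log2 fold change was 2.74 ± 0.32 for the *SSA* pair (edgeR adjusted p = 0.0257) and 1.94 ± 0.43 for the Hsp90 pair (edgeR adjusted p = 0.202), and *SSZ1* and *ZUO1* also missed the threshold (edgeR adjusted p = 0.0848 and 0.0624). Without either of the Hel2-HTP libraries, or with only the 4 libraries compared in the fit, 0 of the 7 features passed. Without untagged replicate 1, 6 features passed, and without untagged replicate 2, 5 passed. In the untagged libraries at 20°C the 10 genes together had 6 and 1 reads, 3 of them on the *SSA* pair, 3 on the *SSB* pair and 1 on *ZUO1*.

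Whether Hel2-HTP reads on chaperone mRNAs differ when New1 is missing was asked first at 20°C. Reads were counted over the whole transcript, whereas the study compared Hel2 binding in the 3′ untranslated region. A change in reads can come from the amount of an mRNA or from crosslinking, which cannot be told apart here. *YDJ1*, which encodes the main cytosolic Hsp40 partner of Ssa proteins, lost all of its reads in *new1Δ*. Neither *YDJ1* nor *SIS1* had passed against untagged cells at 30°C (edgeR adjusted p = 0.879 and 0.775). Whether their reads at 20°C depended on Hel2 was not tested. The *SSA* and *SSB* pairs had small changes that did not pass, and *ZUO1*, *SIS1* and the Hsp90 pair had lower values that did not pass the test. Of the 7 features 1 passed (lower), against 67 of 4828 genes tested (1.39%), of which 34 were lower (0.704%) and 33 higher (0.684%). The median log2 fold change was −0.79 over the 7 features and −1.13 over all genes tested.

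In wildtype, 403 and 644 reads fell on *YDJ1* (541 and 449 CPM, from 58 and 79 cDNAs), and neither *new1Δ* library had any. With 3 reads allowed in each *new1Δ* library it was at least 73.5-fold lower (edgeR adjusted p = 4.92e-05). It was not alone in this. Of 1104 genes with 100 or more reads in each wildtype library, 110 had no read in *new1Δ* replicate 1, 260 had none in replicate 2 and 65 had none in either. Of 617 genes with 200 or more reads, 15 had none in either. Of 320 genes with 400 or more reads, 3 had none in replicate 1, 13 had none in replicate 2 and 1 had none in either. That 1 gene was *YDJ1*, whose 403 reads in wildtype replicate 1 lay just above this limit. Without replicate pair 2, whose *new1Δ* table carries the conflicting header, *YDJ1* missed the threshold (edgeR adjusted p = 0.0658). The wildtype libraries had reads on 2995 and 4044 genes and the *new1Δ* libraries on 2951 and 2055, and the part of this in the result was not tested.

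*SIS1*, the essential Hsp40 of the same cytosolic system, was covered by 366 and 365 wildtype reads, against 50 and 0 for *new1Δ*. Both *new1Δ* libraries lay below both wildtype libraries, at 73.1 and 0 CPM against 491 and 255. The fitted log2 fold change was −4.98 ± 1.80 and did not pass (edgeR adjusted p = 0.241), while DESeq2 gave an adjusted p of 0.0301. The 50 reads in *new1Δ* replicate 1 came from 5 cDNAs. Without replicate pair 2 the log2 fold change was −2.47 ± 1.19 (edgeR adjusted p = 0.801).

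The *SSA* pair had 8575 and 8327 CPM in wildtype and 10627 and 9764 CPM in *new1Δ* at 20°C. Both *new1Δ* values were the higher ones in CPM, and after scaling of the libraries the log2 fold change was 0.13 ± 0.31 (edgeR adjusted p = 1). The *SSB* pair had 5624 and 5749 CPM in wildtype and 6232 and 7148 CPM in *new1Δ*, with a log2 fold change of 0.09 ± 0.34 (edgeR adjusted p = 1). Both values depended on the scaling, with 0.49 ± 0.23 for the *SSA* pair and 0.45 ± 0.27 for the *SSB* pair under the size factors of DESeq2, and 0.27 ± 0.21 and 0.23 ± 0.26 without TMM factors. None of these passed in edgeR.

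*ZUO1* had 414 and 585 CPM in wildtype and 289 and 212 CPM in *new1Δ* at 20°C, with no overlap. Its log2 fold change of −1.13 ± 0.89 did not pass (edgeR adjusted p = 0.980) and equalled the median of all genes. Its partner *SSZ1* had 440 and 394 CPM in wildtype and 262 and 727 CPM in *new1Δ*, so that the *new1Δ* libraries lay on both sides of the wildtype ones. The log2 fold change of *SSZ1* was −0.08 ± 0.91 (edgeR adjusted p = 1), and its sign turned under 7 other settings of the fit and without replicate pair 1. The Hsp90 pair had 2596 and 3990 CPM in wildtype and 2211 and 1895 CPM in *new1Δ*. The groups did not overlap, and the log2 fold change of −0.79 ± 0.42 did not pass (edgeR adjusted p = 0.930). In the 2 replicate pairs the ratio of the Hsp90 pair stood at percentiles 50.5 and 54.5 of all genes with reads. Without replicate pair 2 the log2 fold change was −0.24 for *ZUO1*, −0.47 for *SSZ1*, 0.049 for the Hsp90 pair, 0.59 for the *SSA* pair and 0.43 for the *SSB* pair, and none passed in edgeR.

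**Figure D3:**
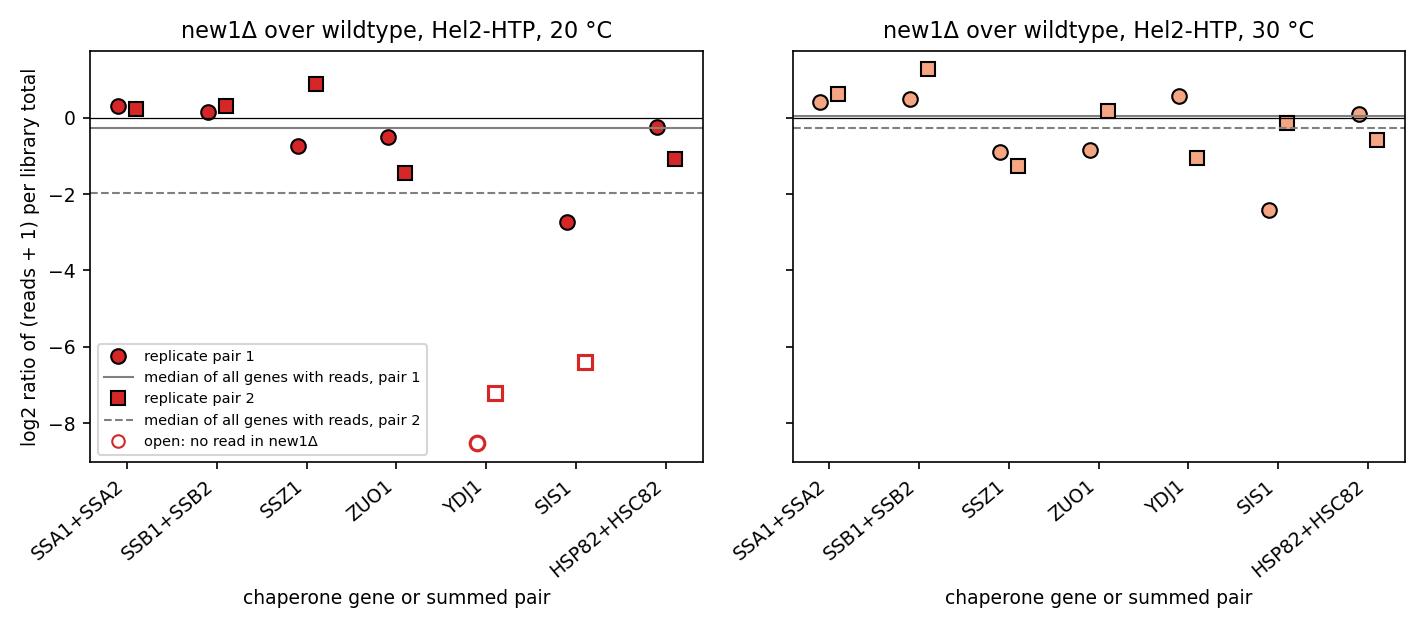
Log2 ratio of *new1Δ* over wildtype in Hel2-HTP libraries for each replicate pair (vertical axis; reads plus 1, divided by the mRNA reads of the library) of the 7 features at 20°C (left) and 30°C (right), with the median over all genes with reads as horizontal lines. Open symbols mark features without a read in *new1Δ*, as for *YDJ1* in both pairs at 20°C, and both pairs of the *SSB* feature lie above 0 at 30°C.

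At 30°C the order was another one. The *SSB* and *SSA* pairs had the highest values relative to wildtype, *SSZ1* and *SIS1* the lowest, and *YDJ1* and the Hsp90 pair were near 0. Of the 7 features 0 passed in edgeR, against 24 of 4828 genes tested, all of which were higher (0.497%). Without adjustment 2 of the 7 features, the *SSB* and the *SSA* pair, had p under 0.05, as had 106 of all genes. The median log2 fold change was 0.01 over the 7 features and 0.13 over all genes tested.

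The *SSB* pair had 4143 and 4044 CPM in wildtype and 5831 and 9734 CPM in *new1Δ* at 30°C, and both *new1Δ* libraries were above both wildtype libraries. The log2 fold change was 1.14 ± 0.35, the pair stood at place 38 of all genes by unadjusted p, and it missed the threshold after adjustment in edgeR (adjusted p = 0.133). It passed with DESeq2 (adjusted p = 0.0246) and with DESeq2's size factors in edgeR (adjusted p = 0.0460). Under the other 8 of 10 settings it did not pass. In edgeR the adjusted p was 0.298 with cDNA numbers, 0.339 without TMM factors and 0.494 with no replicate block. The log2 fold change was 1.55 without replicate pair 1 and 0.65 without replicate pair 2. Taken as separate genes, *SSB1* had a log2 fold change of 1.36 ± 0.41 (edgeR adjusted p = 0.128) and *SSB2* of 0.81 ± 0.43 (edgeR adjusted p = 1).

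The *SSA* pair had 7873 and 7218 CPM in wildtype and 10466 and 11171 CPM in *new1Δ* at 30°C. The groups did not overlap, and the log2 fold change of 0.78 ± 0.31 did not pass (edgeR adjusted p = 0.792). *SSZ1* lay lower in both *new1Δ* libraries (510 and 318 CPM) than in wildtype (959 and 761 CPM), with a log2 fold change of −0.83 ± 0.90 (edgeR adjusted p = 1). *ZUO1* overlapped between the groups, with 1102 and 641 CPM in wildtype and 618 and 720 CPM in *new1Δ*.

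*YDJ1* was detected in both strains at 30°C. Wildtype gave 194 and 193 reads, *new1Δ* gave 331 and 100, from 14, 48, 24 and 27 cDNAs. Its CPM values of 228 and 527 in wildtype enclosed those of 340 and 254 in *new1Δ*, and the log2 fold change was 0.02 ± 1.30 (edgeR adjusted p = 1). *SIS1* was covered by 562 and 125 wildtype reads at 30°C, against 119 and 123 for *new1Δ*, with a log2 fold change of −1.02 ± 1.44 (edgeR adjusted p = 1). Its *new1Δ* values of 122 and 313 CPM lay below the wildtype values of 662 and 341 CPM, the second only slightly. The Hsp90 pair overlapped, with 4000 and 4543 CPM in wildtype and 4271 and 3037 CPM in *new1Δ*.

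The difference between the temperatures in the effect of *NEW1* deletion was tested as a contrast in the same fit. *YDJ1* was the 1 feature of 7 that passed (edgeR adjusted p = 0.00456), against 6 of 4828 genes tested, all with a lower change at 20°C (0.124%). *YDJ1* fell at 20°C to 0 reads and overlapped between the strains at 30°C. The call was lost when any of the 4 replicate pairs was left out, with adjusted p between 0.112 and 1, with cDNA numbers in place of reads (adjusted p = 0.167) and without the replicate block (adjusted p = 0.0981), all in edgeR. The *SSB* pair had a difference of −1.05 ± 0.48 between the temperatures, which did not pass (edgeR adjusted p = 1) and was −0.55 without replicate pair 2 at 20°C.

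Wildtype Hel2-HTP libraries were compared between 20°C and 30°C, where temperature stands for all differences in culture and preparation. Of 4828 genes tested, 0 passed in edgeR and 114 had an unadjusted p under 0.05 (0% called), and DESeq2 called 25. Of the 7 features, 0 passed and 0 had an unadjusted p under 0.05. The *SSB* pair was higher at 20°C without overlap, with 5624 and 5749 CPM against 4143 and 4044 CPM at 30°C, a log2 fold change of 0.47 ± 0.34 that did not pass. *SSZ1* had lower values at 20°C without overlap, with 440 and 394 CPM against 959 and 761 CPM, and a log2 fold change of −1.04 ± 0.74. The Hsp90 pair also lay lower at 20°C in both libraries, by −0.36 ± 0.38 on the log2 scale, and *YDJ1*, with 541 and 449 CPM at 20°C, lay within the range of the 30°C libraries or just above it.

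New1-HTP and Hel2-HTP were compared in wildtype cells at 20°C to see whether the 2 proteins differ in the chaperone mRNAs that they contact. Of the 7 features 0 passed in edgeR and 0 had an unadjusted p under 0.05, against 2 called and 87 under an unadjusted p of 0.05 among 4146 genes tested (0.0482% called). *SIS1* had 759 and 831 CPM with New1-HTP, above the 491 and 255 CPM with Hel2-HTP, and a log2 fold change of 1.05 ± 1.44. *ZUO1* had 185 and 272 CPM with New1-HTP, below the 414 and 585 CPM with Hel2-HTP, and a log2 fold change of −1.21 ± 0.97. Both had groups without overlap and neither passed (edgeR adjusted p = 1). The share of all genes without such overlap was not counted.

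The *SSA* pair had 6104 and 12733 CPM with New1-HTP, one below and one above the 8575 and 8327 CPM with Hel2-HTP, and *YDJ1* had 423 and 832 CPM around the 541 and 449 CPM with Hel2-HTP. The higher value of both came from New1-HTP replicate 2, the library with the conflicting header. Without that library the log2 fold change turned from 0.10 to −0.62 for the *SSA* pair, from 0.30 to −0.37 for *YDJ1* and from 0.16 to −0.06 for the Hsp90 pair, and none passed. Without New1-HTP replicate 1 in its place, these values were 0.59, 0.75 and 0.34, and *SSZ1* turned from 0.44 to −0.10. Without replicate 2, *SIS1* had a log2 fold change of 0.90, *ZUO1* of −1.60, *SSZ1* of 0.84 and the *SSB* pair of −0.32. The *SSB* pair had 5071 and 4650 CPM with New1-HTP, both below Hel2-HTP, and a log2 fold change of −0.31 ± 0.25 (edgeR adjusted p = 1).

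The share of a pair's reads that was counted on each paralog was compared between the groups, with the limit that reads from identical stretches can be counted on either gene. *SSA1* took 63.3% and 57.8% of the *SSA* reads in wildtype Hel2-HTP at 20°C, and 57.0% and 48.0% in *new1Δ*. At 30°C it took 52.3% and 56.1% in wildtype, and 60.3% and 66.2% in *new1Δ*. Within each replicate pair the share was thus lower in *new1Δ* at 20°C and higher in *new1Δ* at 30°C.

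*SSB1* showed the same order more clearly. It took 55.3% and 52.9% of the *SSB* reads in wildtype at 20°C, and 45.5% and 38.2% in *new1Δ*. At 30°C it took 55.6% and 54.1% in wildtype, and 64.5% and 63.5% in *new1Δ*. Counted as cDNAs, the shares were 55.3%, 53.6%, 42.7% and 39.4% at 20°C, and 54.7%, 54.4%, 59.1% and 61.2% at 30°C in the same order of libraries. The groups did not overlap at either temperature, and with 2 libraries in a group no test of the shares was made. Fitted as a gene of its own, *SSB1* had a difference between the temperatures of −1.65 ± 0.58 (edgeR adjusted p = 0.621) and *SSB2* of −0.38 ± 0.61 (edgeR adjusted p = 1).

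*HSC82*, the form of Hsp90 made in large amounts without stress, held most of the Hsp90 reads in every tagged library. *HSP82*, the form that heat induces, took 19.1% and 26.9% in wildtype Hel2-HTP at 20°C and 31.2% and 26.2% at 30°C. The *new1Δ* libraries gave 21.7% and 7.35% at 20°C, and at 30°C 18.4% and 34.1%. The replicates of *new1Δ* were thus farther apart than those of wildtype. The value of 7.35% rested on 46 *HSP82* reads from 10 cDNAs in replicate 2, the library with the conflicting header. New1-HTP gave 30.8% and 43.7%.

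**Figure D4:**
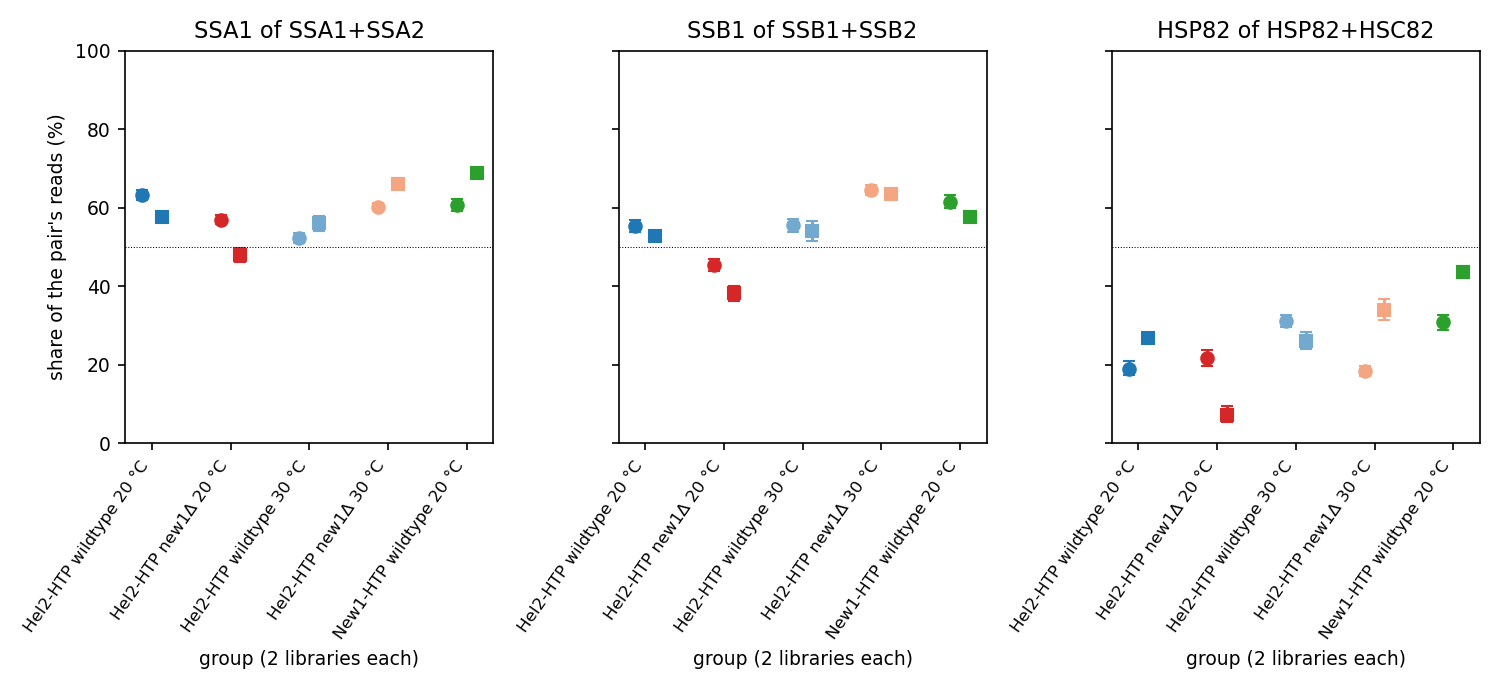
Share (%) of each paralog pair's reads that was counted on *SSA1* (left), *SSB1* (middle) and *HSP82* (right) in each tagged library, with 95% Wilson intervals that cover counting error of reads only. *SSB1* takes 45.5% and 38.2% in Hel2-HTP *new1Δ* at 20°C, and 64.5% and 63.5% at 30°C, with wildtype between 52.9% and 55.6%.

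Other genes of the chaperone system were described from a list of 55 genes that holds further Hsp70 and J-domain proteins, organelle Hsp70 systems, Hsp90 co-chaperones, the nascent polypeptide-associated complex, prefoldin and the chaperonin. At 20°C 53 were tested, of which 0 rose and 2 fell in *new1Δ*, against 0.704% of all genes tested that fell. The median log2 fold change was −0.36 over the list and −1.13 over all genes tested. *CCT5*, a subunit of the chaperonin that folds actin and tubulin, was covered by 411 and 292 wildtype reads and by none in either *new1Δ* library, at least 56.1-fold lower (edgeR adjusted p = 0.0150). Antisense reads on *CCT5* numbered 79 and 33 in wildtype and 47 and 36 in *new1Δ*. Numbers of cDNAs include antisense reads, and *CCT5* had 1 and 4 cDNAs in *new1Δ* without a sense read. Its cDNA numbers thus do not measure sense reads alone. *CCT5* ends on UAU (tyrosine) and *CPR6*, a cyclophilin that binds Hsp90, on UCC (serine). *CPR6* was covered by 152 and 273 wildtype reads and by none in either *new1Δ* library, at least 29.3-fold lower (edgeR adjusted p = 0.0349). At 30°C the untagged libraries had 384 and 423 CPM on *CPR6* (119 and 10 reads), against 330 and 319 CPM in wildtype Hel2-HTP. Neither gene passed against the untagged control (edgeR adjusted p = 0.690 for *CCT5* and 0.882 for *CPR6*). Whether their reads at 20°C depended on Hel2 was not tested. The calls at 20°C were lost under 6 of 10 other settings for *CCT5* and under 7 of 10 for *CPR6*. In edgeR the adjusted p of *CCT5* and *CPR6* was 0.226 and 0.187 with cDNA numbers, 0.0550 and 0.0802 with no replicate block, 0.223 and 1 with only the libraries compared and 0.0571 and 0.107 without TMM factors. Neither passed when a replicate pair was left out.

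At 30°C 1 of 53 rose, against 0.497% of all genes tested, and 0 fell. The median was 0.05 over the list and 0.13 over all genes. *EGD2*, the alpha subunit of the nascent polypeptide-associated complex, which binds at the ribosomal tunnel exit as Ssb proteins do, ends on AAA (lysine). It had 1104 and 1056 CPM in wildtype and 3570 and 3449 CPM in *new1Δ*, a log2 fold change of 1.96 ± 0.52 (edgeR adjusted p = 0.0353). At 20°C it had 673 and 574 CPM in wildtype and 2226 and 1123 CPM in *new1Δ*, also without overlap, and did not pass (log2 fold change 1.21 ± 0.52, edgeR adjusted p = 0.521). The call at 30°C was lost under 6 of 11 other settings, among them without either replicate pair. In edgeR the adjusted p was 0.0747 without a filter, 0.126 without TMM factors, 0.120 with only the libraries compared and 0.280 without the replicate block. The log2 fold change was 1.99 without replicate pair 1 and 1.85 without replicate pair 2.

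Against the untagged control 1 of 48 tested genes of the list was higher, against 0.922% of all genes tested. *STI1*, the co-chaperone that links Hsp70 and Hsp90, ends on CGC (arginine). It had 425 and 161 reads in Hel2-HTP and 0 in both untagged libraries, at least 6.88-fold higher (edgeR adjusted p = 0.0444). It lost the call under 5 of 12 other settings, among them without either Hel2-HTP library. In the other comparisons 0 of the 53 or 46 tested genes of the list passed in edgeR. Of all genes tested, 0.124% passed for the difference between the temperatures. For wildtype at 20°C against 30°C 0% passed, and for New1-HTP against Hel2-HTP 0.0482% passed. In the same order, the median log2 fold change was −1.10, −0.45 and 0.46 over the list, and −1.57, −0.097 and 0.11 over all genes tested.

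For each feature, the gene was sought whose log2 CPM followed it most closely over the 10 tagged libraries, among 2781 genes with a mean of at least 50 CPM. These were *ADE3* for the *SSA* pair (Pearson's r = 0.910), *BMH2* for the *SSB* pair (r = 0.824), *MVD1* for *SSZ1* (r = 0.914) and *FAA3* for *ZUO1* (r = 0.946). For *YDJ1* it was *SAC1* (r = 0.989). Like *YDJ1*, *SAC1* had no read in either Hel2-HTP *new1Δ* library at the lower temperature. The part of these shared zeros in r was not tested. For *SIS1* the closest gene was the retrotransposon gene *YDR261W-B* (r = 0.975), which has near-identical copies and is uncertain. For the Hsp90 pair the closest gene was *FIT3* (r = 0.952). Each is the best of many genes over 10 libraries that share protein, strain and sequencing run in part, and the values are descriptions.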

How the data were processed

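Reads of 14 CRAC libraries were aligned by the authors with novoalign and counted with pyReadCounters (version 1.4.2 or 1.4.4, per the file headers). The deposited counts are sense reads per annotated transcript, neither collapsed nor normalized, where a read with several positions was placed at random. The authors also deposited RPKM values, used here only to recover transcript lengths, and numbers of cDNAs, in which antisense reads are included. Of 6454 protein-coding features, 5862 matched the R64 annotation of RefSeq, and 5838 were used after leaving out 18 mitochondrial features or features without a coding sequence and 6 that share a locus. Unused features held between 1.03% and 5.48% of protein-coding reads.

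CPM are reads per 1000000 mRNA reads. Fold changes come from edgeR 4.0.16 in R 4.3.3 (TMM, filterByExpr, quasi-likelihood test, Benjamini-Hochberg over all genes, threshold 0.05). The *new1Δ* comparisons were fitted on all 8 Hel2-HTP libraries, and replicate pairs entered as a block, because the methods form ratios per replicate and give each replicate its own run. The comparison of temperatures used the same libraries, that with New1-HTP the 6 tagged libraries at 20°C and that with untagged cells the 6 libraries at 30°C, without a block. In a check of the pairing, the departures of same-numbered libraries from the mean of each group had a correlation of 0.0280 (20°C) and 0.0521 (30°C) across 4828 genes. A group at 0 or up to 3 reads gives a bound, from the mean CPM of the other group over the mean CPM that 3 reads are worth. Fits were also run on simulated counts, whose outcome is not given here. New1-HTP libraries of *hel2Δ* cells were not analysed here. Culture medium at 20°C is named differently in the labels and the methods.

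Genes named were the 10 members, genes of the chaperone list past the threshold, and the closest gene to each feature. Members, lists and tests were chosen with earlier results of these data known. Alternatives were DESeq2 1.42.0, its size factors in edgeR, no filter, at least 10 reads in every library, cDNA numbers, separate paralogs, only the libraries compared, another block, each replicate left out and, chosen after seeing the data, library sizes without TMM factors. Tables and plots used Python 3.11.15, pandas 2.3.3, scipy 1.17.1 and matplotlib 3.10.9.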

Additional observations from a re-analysis of the deposited data

Results flagged for a closer look

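The change of *YDJ1* upon *NEW1* deletion differed between 20°C and 30°C, with a fitted difference of −11.47 on the log2 scale (edgeR adjusted p = 0.00456). The size of this value depends on the prior count of the fit, because both *new1Δ* libraries at 20°C had 0 reads, and it is no measured fold. The call was lost in 7 of 11 other settings, with adjusted p up to 1, among them each left-out replicate pair, cDNA numbers, no replicate block and no TMM factors. The share of *SSA1* in the reads of its pair changed in opposite directions, with a mean of *new1Δ* minus wildtype of −8.04 percentage points at 20°C and 9.04 at 30°C, in both replicate pairs of each temperature. For *SSB1* the means were −12.2 percentage points at 20°C and 9.16 at 30°C, again in both replicate pairs. These differences in shares between the temperatures were not tested.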

How the results depend on the processing

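Counts of the 7 features past the threshold moved as follows. For *new1Δ* at 20°C, 1 passed, against 2 with DESeq2, 0 with at least 10 reads in every library (*YDJ1* and *SIS1* were then not tested) and 0 to 1 when a replicate pair was left out. At 30°C 0 passed, against 1 with DESeq2 and 1 with its size factors. For the difference between temperatures 1 passed, against 0 with at least 10 reads, 0 with cDNA numbers, 0 without TMM factors (chosen after seeing the data), 0 with no replicate block and 0 to 0 when a replicate pair was left out. Against untagged cells 4 passed, against 2 with at least 10 reads, 1 without TMM factors, 0 with only the libraries compared and 0 to 6 when a library was left out.

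Calls among all genes at 20°C numbered 67, against 236 with DESeq2, 44 without TMM factors, 38 with only the libraries compared, 20 with no replicate block and 13 to 35 without a replicate pair. At 30°C the 24 calls became 56 with DESeq2, 37 with cDNA numbers, 1 with only the libraries compared, 5 with no replicate block and 8 to 20 without a pair. The 6 calls for the difference became 15 with DESeq2, 2 with at least 10 reads, 3 with cDNA numbers, 3 without TMM factors, 2 with no replicate block and 0 to 11 without a pair. Between wildtype temperatures 0 calls became 25 with DESeq2, 3 with its size factors, 10 without a filter, 3 with at least 10 reads, 5 without TMM factors and 1 to 20 without a library. For New1-HTP 2 calls became 12 with DESeq2, 4 without a filter, 0 with only the libraries compared, 5 with a replicate block and 3 to 10 without a library. The 39 calls against untagged cells became 207 with DESeq2, 237 without a filter, 65 with at least 10 reads, 215 with cDNA numbers, 11 without TMM factors, 0 with only the libraries compared and 0 to 311 without a library. The cause of these changes was not tested.

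Signs turned for values that did not pass. For *SSZ1* at 20°C the log2 fold change became 0.29 with DESeq2, 0.29 with its size factors, 0.072 without a filter, 0.21 with at least 10 reads, 0.065 without TMM factors, 0.0029 with only the libraries compared and 0.023 with no replicate block, and ranged from −0.47 to 0.53 without a pair. At 30°C, *YDJ1* became −0.042 with DESeq2, −0.042 with its size factors, −0.13 without a filter, −0.24 without TMM factors, −0.045 with only the libraries compared and −0.15 with no replicate block (−0.77 to 0.73 without a pair). The Hsp90 pair became −0.047, −0.048, −0.13, −0.24 and −0.052 under the first 5 of these settings and −0.015 with cDNA numbers (−0.30 to 0.25 without a pair). The *SSA* pair with New1-HTP became −0.024 with cDNA numbers. Leaving out a replicate gave ranges of −0.12 to 0.59 (*SSA* pair), −0.037 to 0.43 (*SSB* pair) and −1.43 to 0.049 (Hsp90 pair) at 20°C, −0.68 to 0.44 (*ZUO1*) and −2.28 to 0.15 (*SIS1*) at 30°C, −1.38 to 0.19 for the difference in the Hsp90 pair and −0.25 to 1.21 for *YDJ1* between wildtype temperatures. With New1-HTP they were −0.62 to 0.59 (*SSA* pair), −0.10 to 0.84 (*SSZ1*), −0.37 to 0.75 (*YDJ1*) and −0.27 to 0.59 (Hsp90 pair).

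Per 1000000 reads on all features, the summed level of the 10 genes was 7056 in wildtype and 5389 in *new1Δ* at 20°C, 4743 and 6210 at 30°C, 6432 with New1-HTP and 820 in untagged cells at 30°C, against 19216, 19720, 18521, 23853, 20458 and 4316 CPM. Size factors of DESeq2 moved the median of all genes by 0.36 at 20°C, 0.42 for the difference, 0.16 for New1-HTP and −0.41 against untagged cells. No paired analysis was possible for wildtype at 20°C against 30°C because pairs lie within a temperature. DESeq2 gave no adjusted p for 1966 genes at 20°C and 3557 at 30°C. The single genes rested on 0 to 150 cDNAs in a tagged library.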
